A study of Mus musculus with 7 samples.

Results

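The genes described here are 33 genes of the antioxidant defence: NRF2 and its sensor, the enzymes of the glutathione, thioredoxin and peroxiredoxin systems, and detoxifying enzymes known as NRF2 targets. They were taken by gene symbol from a list of such genes, and all 33 were found, each in 1 of the 27179 rows of the count table. All 33 also passed the filter on low counts, so none was lost from the test. The cells were alveolar macrophages, which live in the air sacs and clear particles and surfactant, sorted from mice of 4 months of age. One group was WT on the C57BL/6 strain, with 4 libraries, and the other was Cish KO (Cish-/-) on the same strain, with 3 libraries. No treatment is given for either group. Cish encodes a SOCS family protein that dampens signals of cytokine receptors. The study concerns the role of that brake in the lung-specific programme of these macrophages, and the question here is whether their antioxidant genes differed with it. The labels give neither the sex of the mice nor the design of the Cish allele, nor whether libraries stand for separate mice, so the p-values rest on the spread between libraries, which may be technical.

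NRF2, encoded by Nfe2l2, is a transcription factor that KEAP1 holds for degradation in resting cells. When oxidants or electrophiles modify KEAP1, NRF2 builds up and binds antioxidant response elements of genes that make glutathione, reduce thioredoxin and conjugate or reduce toxic compounds. The glutathione peroxidases and peroxiredoxins remove peroxides, and glutathione reductase and the thioredoxin reductases restore the reduced partners with NADPH. Alveolar macrophages meet inhaled oxygen, particles and surfactant lipids, and make oxidants of their own.

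RNA was counted as reads per gene, with total counts per library between 26780291 and 34483612. Values are given as CPM, read counts scaled to a common library total. Cish itself lay between 29.6 and 67.9 CPM in WT and between 10.9 and 14.3 CPM in KO, without overlap. WT 4 stood apart from its group on the first principal component, at 7.27, where WT 1 to WT 3 had -39.4 to -24.1 and KO 18.3 to 43.9. All 15 listed alveolar macrophage markers were measured in both groups, with sums of 35659 to 71693 CPM in WT and 61502 to 93380 CPM in KO. Chil3, the most abundant of them, lay at 16623 to 50491 CPM in WT and 40503 to 72178 CPM in KO. DESeq2 called 4 of the 15, Ctsk, Mrc1 and Fabp5 higher and Siglecf lower in KO (521 to 587 CPM in WT and 372 to 455 CPM in KO), and edgeR called none. Over all genes DESeq2 called 6.11% and edgeR 0.0862%. Among lists of other cells, the summed red cell genes lay at 13.6 to 348 CPM in WT and 285 to 856 CPM in KO, with Hba-a2 the most abundant. The neutrophil list summed to at most 35.3 CPM in any library, with S100a8 the most abundant and Ly6g at 0 in all. The 6 endothelial genes, led by Vwf, summed to 11.9 to 16.5 CPM in WT and 18.5 to 32.4 CPM in KO. The eosinophil list, led by Ear6 and with Prg3 at 0 in all libraries, summed to 3.06 to 10.4 CPM in WT and 20.2 to 67.0 CPM in KO. Ear6 alone had means of 5.62 CPM in WT and 38.9 CPM in KO and so made up most of these sums. Epx and Prg2 of the same list reached at most 0.0389 and 0.0777 CPM in any library. The list for alveolar type 2 and club cells summed to 295 to 463 CPM in WT and 219 to 302 CPM in KO. Its most abundant gene, Epcam, was lower in KO (9.24 to 92.6 CPM, against 135 to 302 CPM in WT), whereas the type 2 cell gene Sftpc lay at 12.9 to 47.2 CPM in WT and 19.2 to 69.5 CPM in KO. The sums of the other lists overlapped between the groups. Their most abundant genes were Ccr2 for monocytes, Cd3e for T and NK cells, Ighm for B cells, Clec9a for dendritic cells, Col3a1 for fibroblasts and Mki67 for cycling cells. In such bulk samples fewer cells of a type and less RNA per cell cannot be told apart.

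A peroxide-removing enzyme had the highest transcript level of the 33. To compare genes, CPM was divided by the length of each gene's annotated exons (CPM per kb). Gpx1, the cytosolic glutathione peroxidase, stood first, with 1777 CPM per kb in WT and 1386 in KO, and made up 33.2% of the sum over the 33 genes in WT. Prdx1, a cytosolic peroxiredoxin, came second with a level of 559 CPM per kb in WT, followed by Txn1, the cytosolic thioredoxin that reduces it, with 460. Mgst1, a glutathione transferase of membranes, had a level of 435 CPM per kb in WT, and Sqstm1, the p62 autophagy adaptor that binds KEAP1, 386. Nfe2l2 was itself abundant, with a level of 198 CPM per kb in WT, and Keap1 was much lower, at 10.1. At the bottom stood Abcc1, Gpx3, Akr1b8, Nqo1, Osgin1 and Slc7a11, each under 3 CPM per kb in WT. Nqo1, the quinone reductase widely used to read NRF2 activity, had a level of only 1.64 CPM per kb in WT. In KO the first 3 genes were the same and in the same order. The largest move in the order was between WT and KO for Akr1b8, from place 30 to 27 of 33. How reads matching several places were counted is not given, so levels of genes with near-identical copies are uncertain. The plot of levels per length shows the spread behind this order.

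**Figure D1:**
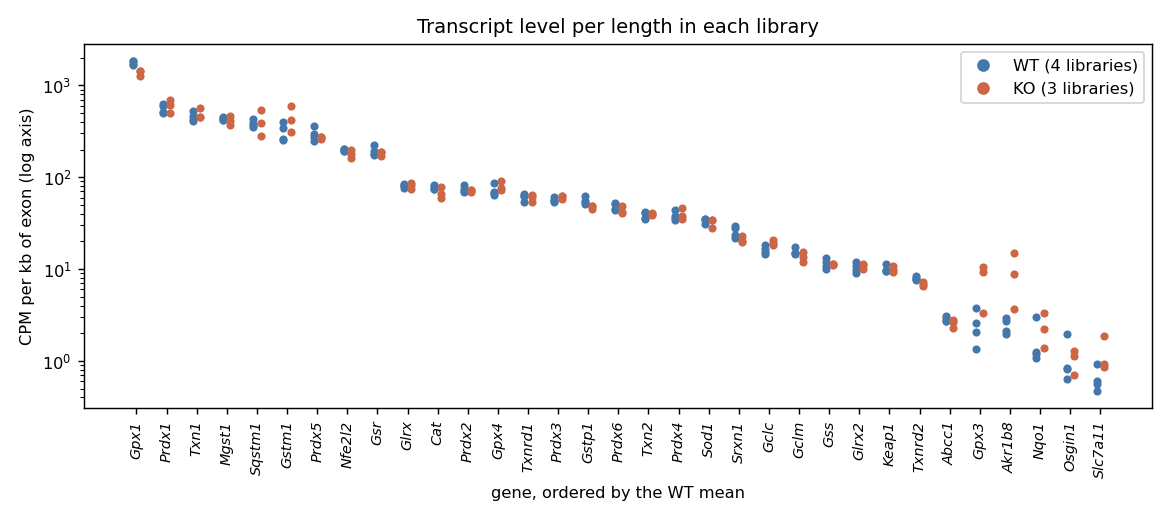
Level of each of the 33 genes in CPM per kb of exon (log axis), with 1 point per library, 4 WT and 3 KO, ordered by the WT mean. Gpx1 stands above all others at 1777 CPM per kb in WT and 1386 in KO, and KO points lie highest above WT for Gpx3 and Akr1b8 at the low end.

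The antioxidant genes showed no net shift with genotype in their median, and the largest fold changes were those of Akr1b8, Gpx3 and Slc7a11, which are of low abundance. Of the 33 genes, 14 (42.4%) were higher in KO, where 50.5% of the 12759 genes tested were, and 19 were lower. The median of their log2 fold changes (KO minus WT) was -0.01, against 0.0030 over all genes tested. The fold change was under 0.5 in size on the log2 scale for 29 of the 33. By edgeR's quasi-likelihood test, with Benjamini-Hochberg adjustment over all genes, 0 of the 33 passed an adjusted p of 0.05, where 0.0862% of all genes did. An unadjusted edgeR p below 0.05 was found for 8 of them (24.2%), against 18% of all genes; 4 were higher, against 9.15% of all genes, and 4 lower, against 8.85%. DESeq2 called 4 (12.1%), against 6.11% of all genes. Akr1b8, Gpx3 and Slc7a11 were higher, a direction called for 2.88% of all genes, and Gpx1 was lower, against 3.23%. Groups did not overlap for 4 genes (12.1%), against 16% of all genes. Akr1b8 was above (7.23% of all genes were), and Gpx1, Gstp1 and Txnrd2 below (8.72%). Of the DESeq2 calls, Akr1b8 was the one kept with each of the 7 libraries left out in turn, and without KO 1 it was the only member called. The figure of fold changes by role sets these 4 genes beside the rest.

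**Figure D2:**
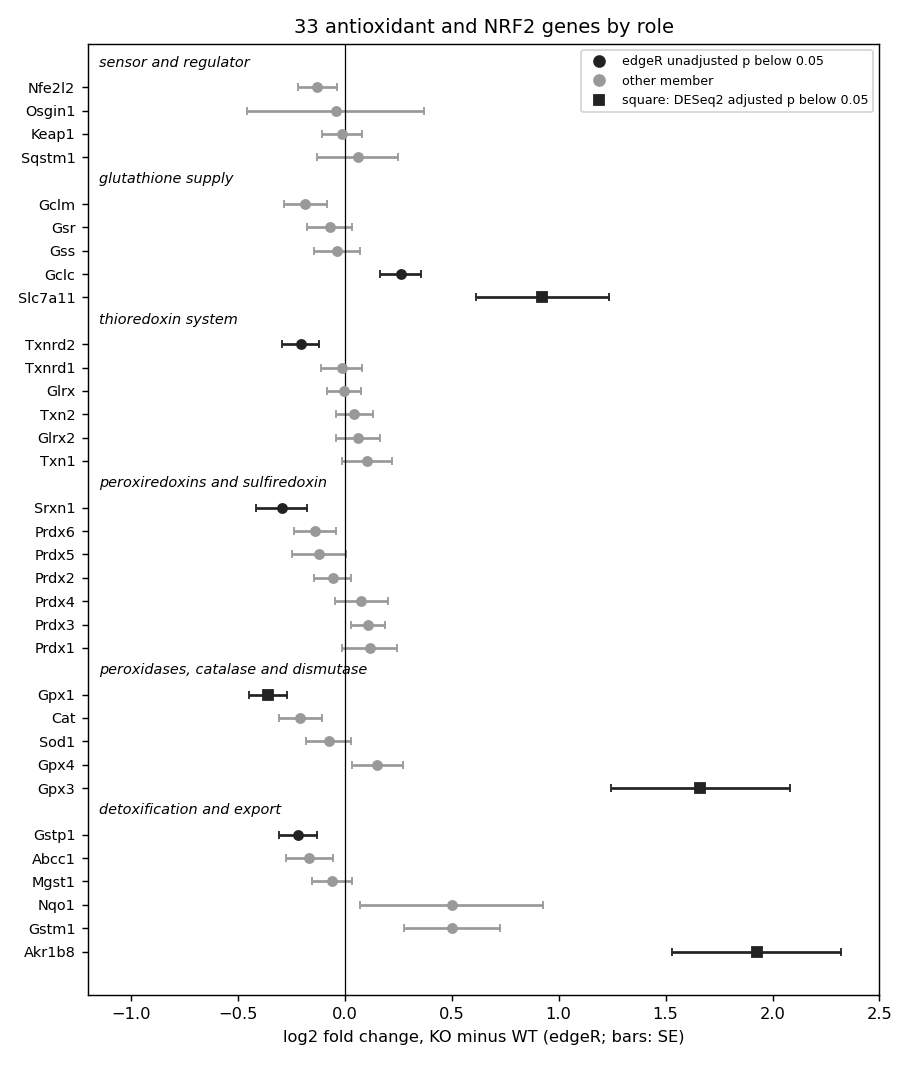
Log2 fold change, KO minus WT, of the 33 genes grouped by role, with bars for the SE from edgeR. Black marks have an unadjusted edgeR p below 0.05 and squares a DESeq2 adjusted p below 0.05; 29 of 33 genes lie within 0.5 of 0.

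Neither the gene of NRF2 nor that of its sensor passed either test. Nfe2l2 was at 507, 475, 472 and 503 CPM in WT 1 to WT 4 and at 444, 497 and 404 CPM in KO 1 to KO 3. KO 1 and KO 3 lay below every WT library and KO 2 among them. Its log2 fold change was -0.13 (SE 0.09, edgeR adjusted p 0.485). Keap1, the adaptor that marks NRF2 for degradation, was at 51.4, 43.2, 43.0 and 43.5 CPM in WT and 42.3, 48.2 and 44.2 CPM in KO. Its groups overlapped, and the log2 fold change was -0.01 (SE 0.09, edgeR adjusted p 0.963), which was 0.05 without WT 1. Sqstm1, itself an NRF2 target, ranged from 998 to 1215 CPM in WT. In KO it was at 1097, 1523 and 788 CPM, so KO 2 was above and KO 3 below all WT libraries. Osgin1, a stress-induced growth inhibitor, was at 3.92 CPM in WT 1 and 1.28 to 1.69 CPM in the other WT libraries, with 1.40 to 2.60 CPM in KO.

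Among genes that supply glutathione, the cystine importer stood out. Slc7a11, the transporter chain of system xc- that brings in cystine, was at 9.06, 5.53, 4.58 and 5.98 CPM in WT and 18.2, 9.21 and 8.38 CPM in KO. KO 1 was the highest library, and KO 3 lay below WT 1. The mean was 6.29 ± 1.94 CPM in WT (SD, n = 4) and 11.9 ± 5.46 CPM in KO (SD, n = 3). The log2 fold change was 0.92 (SE 0.31, edgeR adjusted p 0.178, DESeq2 adjusted p 0.0420). Without KO 1 the edgeR log2 fold change was 0.48, and the DESeq2 call ended without KO 1 (adjusted p 0.668), WT 2 (0.131), WT 3 (0.141) or WT 4 (0.0583). Slc3a2, the partner chain of this transporter and no member of the list, had a log2 fold change of -0.29 (edgeR adjusted p 0.239).

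The enzymes that build and restore glutathione had small fold changes that passed neither test. Gclc, the catalytic subunit of the rate-limiting ligase, was at 52.4, 56.2, 62.9 and 50.4 CPM in WT and 70.7, 66.5 and 62.3 CPM in KO. KO 1 and KO 2 lay above every WT library and KO 3 just below WT 3. Its log2 fold change was 0.26 (SE 0.09, edgeR adjusted p 0.197, DESeq2 adjusted p 0.160). Gclm, the modifier subunit of the same ligase, had a log2 fold change of -0.18, opposite in sign and past neither test (edgeR adjusted p 0.376). Gss, glutathione synthetase, and Gsr, the reductase that restores glutathione, had log2 fold changes of -0.04 and -0.07.

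In the thioredoxin system no gene passed either test, and fold changes were at most 0.21 in size on the log2 scale. Txn1 had a mean of 483 ± 54.1 CPM in WT (SD, n = 4) and 519 ± 68.3 CPM in KO (SD, n = 3), and Txnrd1, its cytosolic reductase and a known NRF2 target, 247 ± 19.7 and 245 ± 21.4 CPM. Txnrd2, the mitochondrial thioredoxin reductase, was at 28.9, 26.0, 27.9 and 27.0 CPM in WT and at 22.6, 25.2 and 23.5 CPM in KO. All KO libraries lay below all WT libraries, and the log2 fold change was -0.21 (SE 0.08, edgeR adjusted p 0.246, DESeq2 adjusted p 0.255). Txn2, the mitochondrial thioredoxin, and the glutaredoxins Glrx and Glrx2, which reduce proteins bound to glutathione, had log2 fold changes between -0.0045 and 0.06.

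The 6 peroxiredoxins overlapped between the groups without exception. Their log2 fold changes ran from -0.14 for Prdx6, which can also use glutathione, to 0.12 for Prdx1. Prdx1 was at 1587, 1289, 1297 and 1519 CPM in WT and 1783, 1570 and 1276 CPM in KO, so that KO held both the highest and the lowest library. Prdx3, the mitochondrial form, lay at 79.2 to 90.5 CPM in WT and 85.5 to 93.4 CPM in KO. Srxn1, sulfiredoxin, repairs overoxidized peroxiredoxins and is a known NRF2 target. It was at 83.9, 61.4, 77.9 and 66.4 CPM in WT and 64.6, 56.6 and 55.7 CPM in KO, with only KO 1 above the lowest WT library. The log2 fold change was -0.29 (SE 0.12, edgeR adjusted p 0.242, DESeq2 adjusted p 0.180).

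The glutathione peroxidases went in opposite directions. Gpx1 was at 1858, 1771, 1990 and 2002 CPM in WT and 1348, 1556 and 1553 CPM in KO, with every KO library below every WT library. The mean was 1905 ± 111 CPM in WT (SD, n = 4) and 1486 ± 119 CPM in KO (SD, n = 3), a level 1.28-fold higher in WT. The log2 fold change was -0.36 (SE 0.09, edgeR adjusted p 0.110, DESeq2 adjusted p 0.00712). The DESeq2 call ended without WT 3 (adjusted p 0.0737) or KO 1 (0.203). Gpx1 lies on chromosome 9 at 108339080 to 108340342 (GRCm38), 1.04 Mb from Cish. Keap1 and Gclc share that chromosome at 86.1 and 29.5 Mb. The part of this position in the Gpx1 values was not tested.

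Gpx3, a secreted glutathione peroxidase, was at 4.11, 3.28, 2.13 and 5.98 CPM in WT and 16.8, 14.8 and 5.26 CPM in KO. KO 1 and KO 2 lay well above all WT libraries, and KO 3 lay below WT 4. The mean was 3.88 ± 1.62 CPM in WT (SD, n = 4) and 12.3 ± 6.16 CPM in KO (SD, n = 3). Its fitted log2 fold change was 1.66 (SE 0.42, edgeR adjusted p 0.110, DESeq2 adjusted p 0.00132). The DESeq2 call ended without WT 1 (adjusted p 0.126), WT 2 (0.171) or KO 1 (0.0748), and edgeR passed without KO 3 (2.02, adjusted p 0.0300). Some lists of other cells also differed in their sums between the groups, in both directions. The summed red cell genes were at 348, 77.7, 13.6 and 328 CPM in WT and 546, 856 and 285 CPM in KO. The endothelial genes summed to 11.9, 16.5, 12.5 and 12.0 CPM in WT and 32.4, 18.5 and 23.5 CPM in KO. The red cell sums overlapped, with KO 3 below WT 1 and WT 4. The eosinophil sums, given above and made up mostly of Ear6, lay above WT in every KO library. The mean of the type 2 and club cell sums was lower in KO, at 250 CPM against 379 CPM, but its genes did not move together. In that list only Epcam (209 CPM in WT and 43.8 CPM in KO) and Napsa (94.1 and 64.2 CPM) had lower means in KO. Each other gene of that list, Sftpc among them, had a higher mean in KO. DESeq2 called 4 of the 6 endothelial genes higher and 0 of the 4 red cell genes it could be read for. Over all genes it called 2.88% higher, and edgeR called none of either list. The 4 called, Pecam1, Cdh5, Tek and Cldn5, were of low abundance, with means of at most 1.03 CPM in WT and 2.79 CPM in KO. The part of these lists in the Gpx3 values was not tested.

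The remaining enzymes against peroxide and superoxide overlapped between the groups. Gpx4, which protects membrane lipids, had a log2 fold change of 0.15. Catalase (Cat), the peroxide-splitting enzyme of peroxisomes, had 204 ± 9.79 CPM in WT (SD, n = 4) and 177 ± 23.8 CPM in KO (SD, n = 3), and its log2 fold change was -0.21 (edgeR adjusted p 0.319). Sod1, the cytosolic superoxide dismutase, had a log2 fold change of -0.07.

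**Figure D3:**
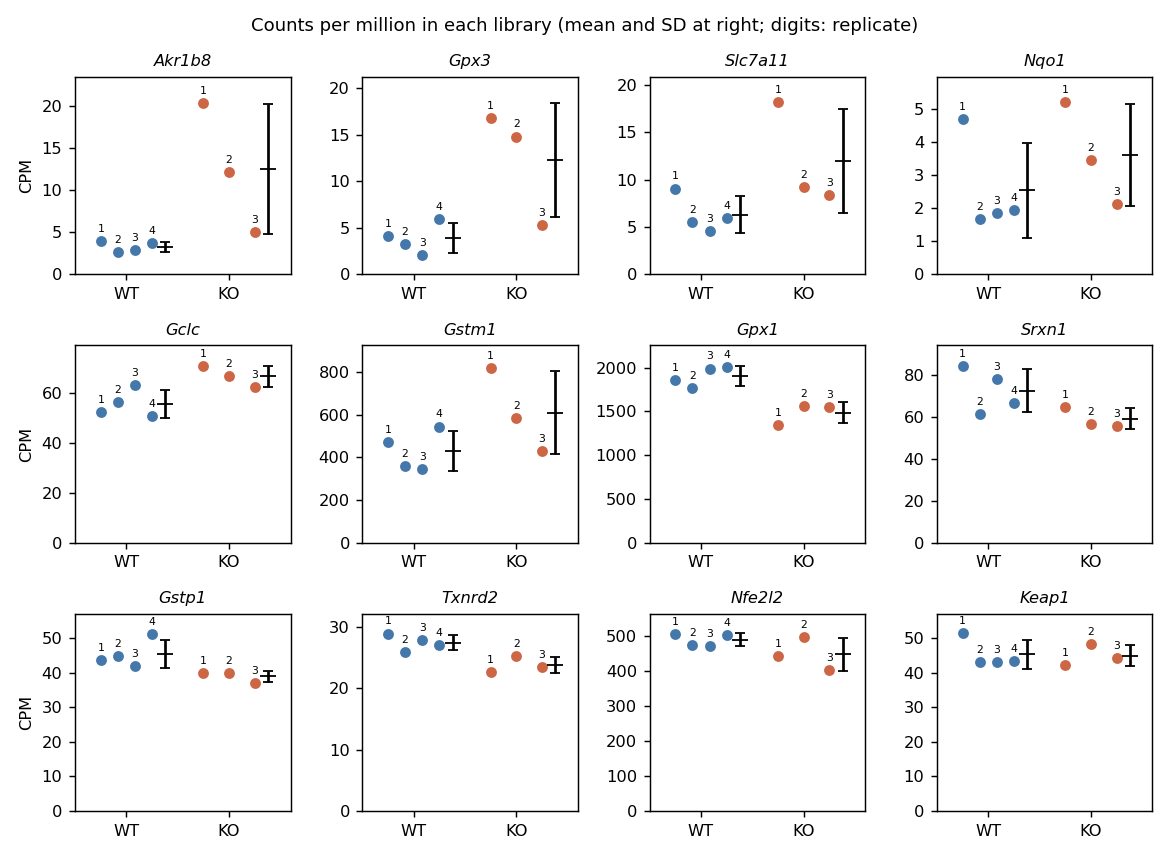
CPM in each library (points, with the replicate number) for 12 of the genes, with the mean and SD of the group at right; each axis starts at 0. Akr1b8, Gpx3, Slc7a11, Nqo1 and Gstm1 have KO 1 as their highest library, while Gpx1, Gstp1 and Txnrd2 show every KO library below every WT library.

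Of the detoxifying enzymes, Akr1b8 had the largest difference of all 33 genes. Akr1b8 is an aldo-keto reductase that reduces reactive aldehydes. It was at 3.94, 2.69, 2.86 and 3.69 CPM in WT and 20.4, 12.2 and 5.0 CPM in KO. Every KO library was above every WT library, though KO 3 was close to WT 1. The mean was 3.30 ± 0.615 CPM in WT (SD, n = 4) and 12.5 ± 7.72 CPM in KO (SD, n = 3), 3.80-fold higher. Its fitted log2 fold change was 1.93 (SE 0.39, edgeR adjusted p 0.0938, DESeq2 adjusted p 3.75e-05). It was 1.38 without KO 1 and 2.30 without KO 3, where edgeR passed (adjusted p 0.00669). The related Akr1b3 and Akr1b10 had log2 fold changes of -0.10 and -0.14, and Akr1b7 was under 1 CPM in both groups on average.

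Nqo1 and Gstm1 overlapped between the groups. Nqo1 was at 4.70, 1.69, 1.85 and 1.94 CPM in WT and 5.22, 3.46 and 2.13 CPM in KO. WT 1 lay far above the other WT libraries and close to KO 1. The log2 fold change was 0.50 (SE 0.43, edgeR adjusted p 0.575), 0.98 without WT 1 and 0.13 without KO 1. Gstm1, a glutathione transferase of the mu class, was at 472, 359, 345 and 544 CPM in WT and 816, 582 and 430 CPM in KO. KO 3 was among the WT libraries, and the log2 fold change was 0.50 (SE 0.22, edgeR adjusted p 0.282, DESeq2 adjusted p 0.157). DESeq2 called Gstm1 without WT 4 or without KO 3, and without KO 1 the edgeR value was 0.24. Gstm1 belongs to a family with close copies, which may share reads.

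The other detoxifying genes had lower means in KO and passed neither test. Gstp1, the pi class transferase, was at 43.7, 44.7, 41.8 and 51.2 CPM in WT and 39.8, 39.9 and 37.1 CPM in KO, without overlap (log2 fold change -0.22, SE 0.09, edgeR adjusted p 0.244). Its near copy Gstp2, which may share reads with it, had a log2 fold change of -0.19. Mgst1 had 797 ± 32.0 CPM in WT (SD, n = 4) and 765 ± 90.2 CPM in KO (SD, n = 3). Abcc1, which exports glutathione conjugates, had a log2 fold change of -0.16 (edgeR adjusted p 0.452).

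Across libraries the members did not vary as one block, though KO 3 held the lowest share of counts for them. They made up 0.794% of the counts in KO 3, and between 0.905% (WT 2) and 0.984% (WT 1) in the other libraries. KO 1 held the highest value for 11 of the 33 genes and the lowest for 4, and over all genes tested it was the highest for 19.7% and the lowest for 20.1%. WT 1 held the highest for 9 and the lowest for 0, beside 14.6% of all genes for each. KO 3 held the highest for 0 and the lowest for 12, beside 11.6% and 11.3% of all genes. Within KO, the highest library was KO 1 for 14 of the 33 genes, KO 2 for 15 and KO 3 for 4. Akr1b8, Gpx3, Slc7a11, Nqo1 and Gstm1 all had KO 1 at the top of that group and KO 3 at the bottom. WT 1 was the highest WT library for 14 of the 33 genes, among them Akr1b8, Slc7a11, Nqo1, Osgin1, Srxn1, Gsr and Keap1, and WT 4 for 13. The heat map of relative levels shows these columns side by side.

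**Figure D4:**
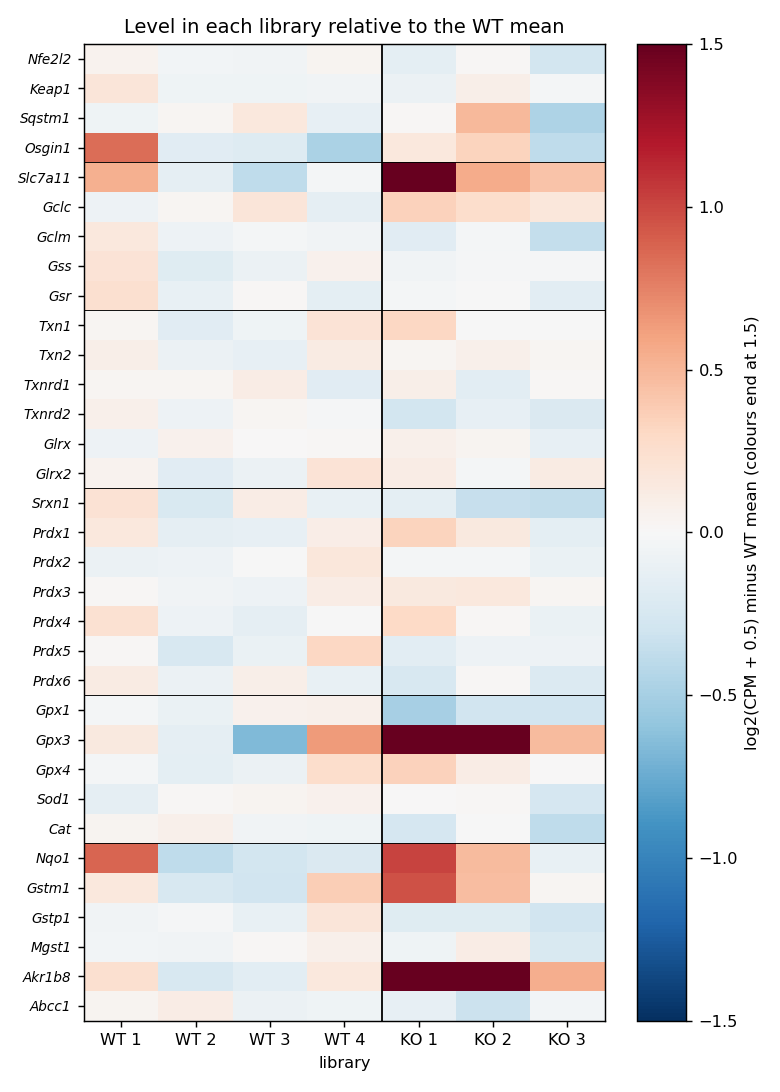
Heat map of the 33 genes (rows, grouped by role) in 7 libraries (columns), as log2(CPM + 0.5) minus the WT mean; colours end at 1.5 in either direction. KO 1 and KO 2 are deepest for Akr1b8 and Gpx3 and KO 1 for Slc7a11, KO 3 is paler, and WT 1 is raised for Nqo1 and Osgin1.

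As many of the other pathway genes were higher as lower in KO, and DESeq2 called a share of them close to that of all genes. The lists held 74 further NRF2 regulators, targets and redox genes, of which 68 were tested, 34 higher and 34 lower in KO. Their median log2 fold change was -0.0013, beside 0.0030 over all genes tested. EdgeR called 0 of the 68, with 16 at an unadjusted p below 0.05 (23.5%, against 18% of all genes). At that threshold 5 of the 68 were higher and 11 of the 68 lower, where 9.15% and 8.85% of all genes were. DESeq2 called 0 higher and 4 lower (5.88%, against 6.11% of all genes). Over all genes it called 2.88% higher and 3.23% lower. Groups did not overlap for 12 (17.6%, against 16% of all genes). KO was above for 3 of the 68 and below for 9 of the 68, where it was for 7.23% and 8.72% of all genes. Msrb2, a mitochondrial reductase of oxidized methionine, was at 16.3, 18.4, 19.98 and 18.9 CPM in WT and 9.81, 12.0 and 11.1 CPM in KO. Its groups did not overlap, and the log2 fold change was -0.75 (SE 0.12, edgeR adjusted p 0.0575). Selenow, a small selenoprotein, was at 136, 117, 132 and 138 CPM in WT and 74.6, 93.9 and 95.6 CPM in KO, also without overlap (-0.57, SE 0.11, edgeR adjusted p 0.0898). Trim16, a tripartite motif protein, had a mean of 20.2 CPM in WT and 12.7 CPM in KO, and its log2 fold change was -0.67 (edgeR adjusted p 0.0938). Mgst3, a second membrane glutathione transferase, had 205 and 105 CPM (-0.97, edgeR adjusted p 0.111), with WT 1 at 128 CPM below KO 3 at 133 CPM. Hmox1, the heme oxygenase that NRF2 and BACH1 control, was at 367, 290, 291 and 425 CPM in WT and at 498, 593 and 271 CPM in KO. KO 3 was the lowest of the 7 libraries, and the log2 fold change of 0.40 passed neither test (edgeR adjusted p 0.416).

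The promoters were read for the letters of the antioxidant response element, to set sequence beside these values. RefSeq windows on GRCm38.p6, from 250 bases before to 50 after the start of transcription, were at hand for 29 of the 33 genes, as 40 windows. Gclc, Gsr, Prdx6 and Abcc1 had none. The core TGACNNNGC was searched on both strands. It was found for 7 of the 29 genes (24.1%), and for 14% of all genes with a window. By windows the shares were 17.5% for the members and 12.4% of all. The sites are shown with 10 bases on each side, in capitals, and turned so that the core reads 5′ to 3′:
Gclm: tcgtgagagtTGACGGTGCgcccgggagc
Mgst1: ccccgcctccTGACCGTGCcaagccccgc
Nfe2l2: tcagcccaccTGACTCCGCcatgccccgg
Prdx1: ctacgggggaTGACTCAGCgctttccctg
Sod1: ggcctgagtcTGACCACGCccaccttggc
Srxn1: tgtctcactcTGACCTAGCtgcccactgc
Txnrd1: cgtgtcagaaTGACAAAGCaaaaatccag
The 7 genes with the core in their window had log2 fold changes between -0.29 (Srxn1) and 0.12 (Prdx1), and none was called by edgeR or DESeq2. A match is no proof of a bound site, and elements farther from the start lie outside these windows.

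The whole window is shown for Prdx1, the most abundant gene of the 7, with the core in capitals as it stands on the strand of the gene. The window lies at chr4:116685349-116685648 on the plus strand, and the core begins 133 bases before the start.
Prdx1: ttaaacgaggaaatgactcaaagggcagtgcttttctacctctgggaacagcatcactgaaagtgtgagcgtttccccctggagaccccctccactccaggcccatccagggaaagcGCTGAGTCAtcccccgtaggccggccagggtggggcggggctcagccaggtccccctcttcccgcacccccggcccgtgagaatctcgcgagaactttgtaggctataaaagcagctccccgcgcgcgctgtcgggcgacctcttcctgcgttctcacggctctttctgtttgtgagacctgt
Akr1b8, the gene with the largest difference, has none of these letters in its window (chr6:34353896-34354195, plus strand):
Akr1b8: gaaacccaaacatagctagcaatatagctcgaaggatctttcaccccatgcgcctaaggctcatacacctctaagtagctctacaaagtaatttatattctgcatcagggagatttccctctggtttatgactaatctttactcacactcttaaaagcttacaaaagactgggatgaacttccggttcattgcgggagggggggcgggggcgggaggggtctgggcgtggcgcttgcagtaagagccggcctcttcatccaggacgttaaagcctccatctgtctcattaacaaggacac

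Slc7a11 is also known as a target of ATF4, the factor of the amino acid response, so its window was read for the letters TGATGCAAA on both strands, a choice made after the window was seen. They occur 2 times, in capitals, and the first lies 66 and the second 48 bases before the start. Of all genes with a window 0.315% hold these letters, and of the 29 members with a window 1 does. The window is on the minus strand of chr3:50443564-50443863:
Slc7a11: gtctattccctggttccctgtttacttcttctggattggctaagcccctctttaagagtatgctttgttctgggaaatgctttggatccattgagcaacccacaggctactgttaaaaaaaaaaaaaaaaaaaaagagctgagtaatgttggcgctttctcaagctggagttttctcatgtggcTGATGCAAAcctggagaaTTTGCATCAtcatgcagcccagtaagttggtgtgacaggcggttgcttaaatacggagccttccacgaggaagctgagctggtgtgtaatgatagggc
The match describes the sequence and does not show that ATF4 was bound in these cells.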

How the data were processed

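The authors deposited 1 table of raw counts, reads per gene symbol, made with rsubread per its file name. The submitters' processing notes name mm10 and DESeq2. What is not given in the sources used here is the aligner's version, the annotation and the rule for multimapping reads. Libraries came from a Nextera XT kit, which does not mark strand, per the labels' protocols. Rows without a symbol (1036, between 0.376% and 0.424% of counts) were left out. The test was that of edgeR 4.0.16 in R 4.3.3: filterByExpr kept 12759 genes, TMM scaled the libraries, and a quasi-likelihood F test compared KO with WT on genotype alone, 2-sided, with 5 residual degrees of freedom. The SE is the log2 fold change divided by the root of F. Alternatives used DESeq2 1.42.0, limma 3.58.1 (voom), other scaling and filters, a replicate block and left-out libraries. The tests were run on simulated counts of independent libraries, none set apart from its group as WT 4 is. Such a run cannot decide which test suits these data. Exon lengths are unions over GENCODE M21 basic transcripts. Per-library values are given for Nfe2l2, Keap1, Nqo1 and every member with an unadjusted edgeR p or a DESeq2 adjusted p below 0.05. Other pathway genes are named where edgeR or DESeq2 called them. Slc3a2, Fth1, Ftl1, Msrb1, Txnrd3, Akr1b3, Akr1b7 and Akr1b10 are named outside this rule, as neither test called them. Values of Sqstm1, Prdx1, Gstm1 and Hmox1 were added after the values were seen. The members, lists, alternatives and naming rule were chosen with earlier results of these data known. Read counts without molecular identifiers do not separate copies of a molecule.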

Additional observations from a re-analysis of the deposited data

Results flagged for a closer look

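In the WT group of 4 libraries, 1 library stood far from the other 3 for 3 of the 33 genes tested for this. All 3 were WT 1. By chance the rule used flags about 1 gene in 20, if values are independent. How often it flags genes outside the list was not computed, so no excess over chance can be read here. Nqo1 was at 4.70 CPM in WT 1 and at 1.69 to 1.94 CPM in the other 3, a gap of 0.916 of the whole range. Osgin1 was at 3.92 CPM in WT 1 and at 1.28 to 1.69 CPM in the other 3, a gap of 0.846 of the range. Keap1 was at 51.4 CPM in WT 1 and at 43.0 to 43.5 CPM in the other 3, a gap of 0.950 of the range.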

How the results depend on the processing

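Of the 16 alternatives set with the design, 11 left the 33 genes without a call. Over all genes the count of 11 became 775 with DESeq2, 397 without a filter, 21 with at least 5 CPM in at least 3 libraries, 46 with voom and 590 without WT 4 and KO 3 together. It lay between 7 and 284 with 1 library left out: 284 without WT 4, 217 without KO 3 and 7 without WT 1. The members' count of 0 became 4 with DESeq2, 2 without a filter and 3 without the pair of libraries, and lay between 0 and 2 with 1 left out, with 2 without KO 3. The count of other pathway genes went from 0 to 4 with DESeq2, 4 without a filter, 1 with voom and 6 without the pair, and lay between 0 and 3 with 1 left out, with 3 without WT 4 and 2 without KO 3. The DESeq2 count of 4 members, left out by library after the data were seen, lay between 1 and 5; the cause was not tested for any of these.

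With the replicate block 430 genes, 4 members (Akr1b8, Gpx3, Slc7a11 and Gstm1) and 4 other pathway genes were called. The labels give replicate numbers but do not say that equal numbers pair the samples. Same-numbered libraries had correlated deviations of -0.01, 0.14 and -0.02, so not every library correlated best with its own number. So few libraries cannot decide whether the numbers pair the samples. WT 4 has no KO library of its number, so the block fit takes no genotype difference from it. Leaving WT 4 out without a block gave 284 genes called.

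The sign of 20 members held in every alternative in which they were fitted, and 30 of 525 member values, over 13 genes, changed sign, with no call on either side. With 1 library left out, the log2 fold change lay between -0.070 (without KO 2) and 0.055 (without WT 1) for Keap1, -0.21 (KO 2) and 0.27 (KO 3) for Sqstm1, and -0.23 (KO 2) and 0.43 (WT 1) for Osgin1. It lay between -0.095 (WT 2) and 0.037 (WT 1) for Gss, -0.12 (WT 4) and 0.015 (WT 1) for Gsr, -0.010 (KO 1) and 0.18 (WT 4) for Txn1, and -0.067 (KO 1) and 0.050 (KO 2) for Txnrd1. For Glrx the bounds were -0.044 (KO 1) and 0.054 (KO 3), for Prdx2 -0.086 (WT 1) and 0.0044 (WT 4), and for Prdx4 -0.049 (KO 1) and 0.16 (KO 3). For Sod1 they were -0.13 (KO 2) and 0.013 (KO 3), and for Mgst1 -0.15 (KO 2) and 0.021 (KO 3). Without WT 4 and KO 3 together the values were Glrx 0.061, Prdx2 0.027, Sod1 0.037 and Mgst1 0.047. The stricter filter gave Keap1 0.0062, Txnrd1 0.0053 and Glrx 0.014, voom Sqstm1 -0.039 and Osgin1 0.037, and the replicate block Sqstm1 -0.027 and Prdx2 0.0026. Library sizes only gave Txn2 -0.0048 and upper-quartile factors Glrx 0.00053. Akr1b8, Nqo1 and Osgin1 were not fitted under the stricter filter. The number of libraries limits precision more for Osgin1, Nqo1 and Gpx3, whose WT values vary most.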

Other observations

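Several of these enzymes are selenoproteins, which carry selenocysteine in their active site, and they did not move together. The grouping was made after the values were seen. Among the members, the log2 fold change was -0.36 for Gpx1 and -0.21 for Txnrd2, with no overlap between the groups for either, but -0.01 for Txnrd1, 0.15 for Gpx4 and 1.66 for Gpx3. Of the other listed genes, Selenow had -0.57, Msrb1 -0.15 and Txnrd3 0.16. DESeq2 called Gpx1 and Selenow lower and Gpx3 higher, and edgeR called none of the 8. Over all genes DESeq2 called 6.11% and edgeR 0.0862%, and the groups did not overlap for 16%. As these 8 were grouped with their values known, the calls say nothing about selenoproteins as a class.

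Genes that handle iron and are known NRF2 targets were abundant beside the members. Fth1, the ferritin heavy chain, had 15048 ± 2194 CPM in WT (SD, n = 4) and 19077 ± 1773 CPM in KO (SD, n = 3), with KO 3 at 17235 CPM just below WT 4 at 17544 CPM (log2 fold change 0.34, edgeR adjusted p 0.209). Ftl1, the light chain, had a log2 fold change of 0.23 (edgeR adjusted p 0.399).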
